A study of Mus musculus with 25 samples.

Results

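The genes described here are 7 enzymes of cholesterol synthesis in mouse hepatocytes: Hmgcs1, Idi1, Fdps, Fdft1, Sqle, Lss and Cyp51. They were chosen by symbol, as the rows of these names in a gene count table of 37117 rows, and all 7 were found and passed the filter on low counts that left 12970 genes for testing. The set was proposed under a name that also covers uptake of low-density lipoprotein (LDL), but each of the 7 is an enzyme of synthesis and none takes up lipoprotein.

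The study raised activity of YAP, the growth-promoting co-activator that the Hippo pathway restrains, in adult liver and sequenced 25 libraries of 500000 sorted hepatocytes each, in 7 groups. ApoYap Dox (3 libraries) carried ApoE-rtTA and TRE-hYAP, a doxycycline-switched human YAP driven through the ApoE promoter, and drank 0.2 mg/ml doxycycline with 2.5% sucrose for 1 week. ApoYap ctrl (4 libraries) carried the same transgenes untreated. Lats1/2 KO (3 libraries) were Lats1flox/flox; Lats2flox/flox mice taken 1 week after AAV8 with Cre under the hepatocyte TBG promoter, which removes the 2 kinases that hold YAP out of the nucleus. Lats1/2 flox ctrl (4 libraries) were untreated mice of that floxed strain. C57BL/6 mice without transgene or floxed alleles were untreated (BL/6 ctrl, 4 libraries), drank the same doxycycline water for 1 week (BL/6 Dox, 4 libraries) or received the virus and were taken after only 24 hours (BL/6 AAV-Cre, 3 libraries). The labels give neither sex nor age, and do not say that each library is another animal, so the p-values measure the spread between these libraries.

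Cholesterol is built from acetyl-CoA through mevalonate, isoprenoid diphosphates, squalene and lanosterol. The liver makes much of the body's cholesterol, and its enzyme genes are known to be switched on together by SREBP-2, a membrane-bound transcription factor. When sterols are scarce, the escort protein SCAP carries SREBP-2 to the Golgi for cleavage. When sterols are ample, INSIG proteins hold that complex in the endoplasmic reticulum. Hmgcs1 makes HMG-CoA, which feeds mevalonate. Idi1 interconverts the 2 isoprenoid building blocks and Fdps joins them into farnesyl diphosphate, from which prenylated proteins, dolichol and ubiquinone also branch. Fdft1 (squalene synthase) commits farnesyl diphosphate to sterols, Sqle oxidises squalene, Lss closes its rings to lanosterol and Cyp51 removes a methyl group from lanosterol.

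On GRCm38 with GENCODE M21 annotation, Hmgcs1 (ENSMUSG00000093930.2) lies at chr13:119690379-119708260 and Idi1 (ENSMUSG00000058258.14) at chr13:8885501-8892451. Fdps (ENSMUSG00000059743.12) lies at chr3:89093588-89101959, Fdft1 (ENSMUSG00000021273.10) at chr14:63145150-63179578 and Sqle (ENSMUSG00000022351.14) at chr15:59315077-59331192. Lss (ENSMUSG00000033105.12) lies at chr10:76531588-76557138 and Cyp51 (ENSMUSG00000001467.5) at chr5:4081145-4104746. All 7 are protein coding, and Fdps, Fdft1 and Cyp51 are on the minus strand.

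Because the members moved together, their promoters were read from the RefSeq table (build GRCm38.p6) as the 250 bases before each RefSeq start; it matched 4 of the 7, and Fdps, Fdft1 and Sqle had no entry. RefSeq and GENCODE starts differ: the windows reach 105 bases into the GENCODE gene for Idi1, 49 for Cyp51 and 17 for Lss, and end 28 bases short of it for Hmgcs1. The windows of Hmgcs1 and Lss, which lie wholly or nearly outside the genes, are shown. For both, the stretch just after the RefSeq start was not found whole in a GENCODE transcript of the gene, whereas for Idi1 and Cyp51 it was. Each is written 5′ to 3′ on the strand of its gene, in lower case, and capitals mark letters matching CCAAT (the core bound by NF-Y), GGGCGG (a GC box, bound by Sp1) or TCACNCCA (a form of the sterol element bound by SREBPs), on either strand. The windows are chr13:119690101-119690350 for Hmgcs1 (plus strand), chr13:8885356-8885605 for Idi1 (plus), chr10:76531355-76531604 for Lss (plus) and chr5:4104698-4104947 for Cyp51 (minus).
Hmgcs1: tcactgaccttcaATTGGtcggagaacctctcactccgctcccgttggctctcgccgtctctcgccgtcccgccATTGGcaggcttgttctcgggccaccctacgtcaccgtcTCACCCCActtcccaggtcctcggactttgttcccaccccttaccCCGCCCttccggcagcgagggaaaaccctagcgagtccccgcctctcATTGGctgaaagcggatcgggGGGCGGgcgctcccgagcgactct
Lss: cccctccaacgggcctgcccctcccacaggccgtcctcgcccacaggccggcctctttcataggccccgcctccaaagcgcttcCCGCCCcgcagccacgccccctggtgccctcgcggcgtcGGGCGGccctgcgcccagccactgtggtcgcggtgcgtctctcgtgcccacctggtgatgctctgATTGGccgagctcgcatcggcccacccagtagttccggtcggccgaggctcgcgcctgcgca
All 4 windows held CCAAT, which 33.8% of 32851 promoter windows of that length hold, and all 4 held GGGCGG, held by 32.7%. Hmgcs1 had 3 CCAAT matches and Idi1 had 2, and all matches in Idi1 and the CCAAT of Cyp51 lie inside the GENCODE gene. TCACNCCA was found in Hmgcs1 alone, as TCACCCCA from 137 to 130 bases before the RefSeq start, and 3.7% of all windows hold it. Neither CACGTG (an E-box, in 6.0% of windows) nor GGAATG (the core bound by TEAD, the DNA-binding partner of YAP, in 12.6%) was in any of the 4 windows. These are matches of letters, not measured binding.

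The libraries held 8107539 to 16515330 counts. Lats1 was at 2.97 to 5.10 CPM (counts per 1000000 counts) in Lats1/2 KO against 12.3 to 14.9 in the floxed controls. Lats2 was at 7.70 to 17.8 against 12.9 to 13.7, and whether the counted 3′ ends lie in the deleted parts is not known here. The YAP target Ccn2 was at 161 to 182 CPM in ApoYap Dox and 62.5 to 149 in Lats1/2 KO, against 1.19 to 2.6 in the 2 untreated strains. All 7 hepatocyte markers were present in every group, but 7 of 7 were called lower after YAP (median log2 change -1.78) and 7 of 7 in the knockout (median -0.80). Of all genes, 32.0% and 17.4% were called lower. Without scaling, the marker sums overlapped after YAP, at 59302 to 74109 CPM of total counts in ApoYap ctrl and 46220 to 62826 in ApoYap Dox. They were 58335 to 69422 in the floxed controls and 52916 to 58283 in Lats1/2 KO. Genes of other cell types rose too: 11 of 11 macrophage markers summed to 73.0 to 178 CPM of the unscaled total in ApoYap ctrl and 10274 to 17701 in ApoYap Dox, and to 67.3 to 215 in the floxed controls and 693 to 1926 in Lats1/2 KO. For 10 endothelial markers the sums were 64.4 to 158 against 950 to 1840, and 64.8 to 189 against 462 to 1216. No macrophage or endothelial marker was at 0 in a whole group. The sums of 6 neutrophil markers were 0.257 to 1.32 against 22.0 to 57.1, and 0.291 to 0.573 against 1.27 to 5.20. Of the 4 neutrophil markers tested, 4 were called higher after YAP and 2 in the knockout, where 35.0% and 20.6% of all genes were. Among the 6, Ly6g was at 0 in every library. For 8 stellate or fibroblast markers the sums were 53.8 to 118 against 250 to 407, and 58.0 to 70.7 against 243 to 780. Those of 6 cholangiocyte markers were 2.63 to 5.46 against 208 to 312, and 2.72 to 7.69 against 27.0 to 83.4. Lymphocyte markers summed to no more than 6.37 CPM in any library. In bulk libraries, fewer cells of a type and less RNA per cell cannot be told apart, and the part of these other cells in the results below was not tested.

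After 1 week of human YAP, all 7 enzymes fell. The loss was largest for Fdps (9.21-fold), Idi1 (8.47-fold) and Hmgcs1 (7.0-fold), lay at 5.85-fold for Cyp51, and was 3.45- to 4.01-fold for Fdft1, Sqle and Lss. Each of the 3 induced libraries was below each of the 4 controls for every member, which held for 32.6% of all genes tested. By the quasi-likelihood test of edgeR, at an adjusted p (Benjamini-Hochberg) under 0.05, 7 of 7 were called lower, against 32.0% of the 12970 genes called lower and 35.0% called higher. The median log2 change of the members was -2.55, and that of all genes tested 0.07.

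Hmgcs1, at the entry to the pathway, had 806, 659.6, 852 and 785 CPM (scaled by edgeR's TMM) in the untreated transgenic libraries. With doxycycline it had 103, 148 and 81.9 CPM. All 3 induced libraries were far under the lowest control, and the log2 change was -2.81 (SE 0.24, adjusted p = 3.4e-10). Idi1 was measured on few counts, 40 to 86 in control and 12 to 17 in induced libraries. Its levels were 4.59, 7.21, 4.15 and 5.51 CPM untreated and 0.614, 0.543 and 0.724 CPM induced, again without overlap. Its log2 change of -3.08 carries the widest error of the 7 (SE 0.38, adjusted p = 9e-08). Fdps, the branch point for isoprenoids, stood at 226, 259, 218 and 235 CPM untreated. It stood at 23.8, 31.3 and 21.2 CPM after induction, with a log2 change of -3.20 (SE 0.22, adjusted p = 4.6e-12).

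The 4 enzymes after the branch point fell by 3.45- to 5.85-fold. Fdft1, which starts the sterol branch, went from 61.7, 59.7, 57.4 and 70.4 CPM to 18.5, 21.4 and 14.2 CPM (log2 change -1.79, SE 0.21, adjusted p = 4.5e-08). It keeps the highest share of its control level among the 7. Sqle, the squalene epoxidase, had 110.3, 88.6, 100.1 and 81.4 CPM untreated and 25.3, 29.0 and 16.8 CPM induced. Lss had 34.5, 36.6, 37.6 and 37.8 CPM untreated, with the smallest SD relative to its mean among the 7 in these controls, and 8.85, 10.5 and 8.16 CPM induced. Both changed by -2.0 on the log2 scale (SE 0.18 for Sqle and 0.23 for Lss, adjusted p = 7e-10 and 6.1e-08). Cyp51 had 202, 244, 211 and 219 CPM untreated and 39.7, 45.3 and 27.3 CPM induced (log2 change -2.55, SE 0.16, adjusted p = 1.2e-12). Among the induced libraries, the second was the highest and the third the lowest for 6 of the 7, Idi1 being the exception.

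**Figure D1:**
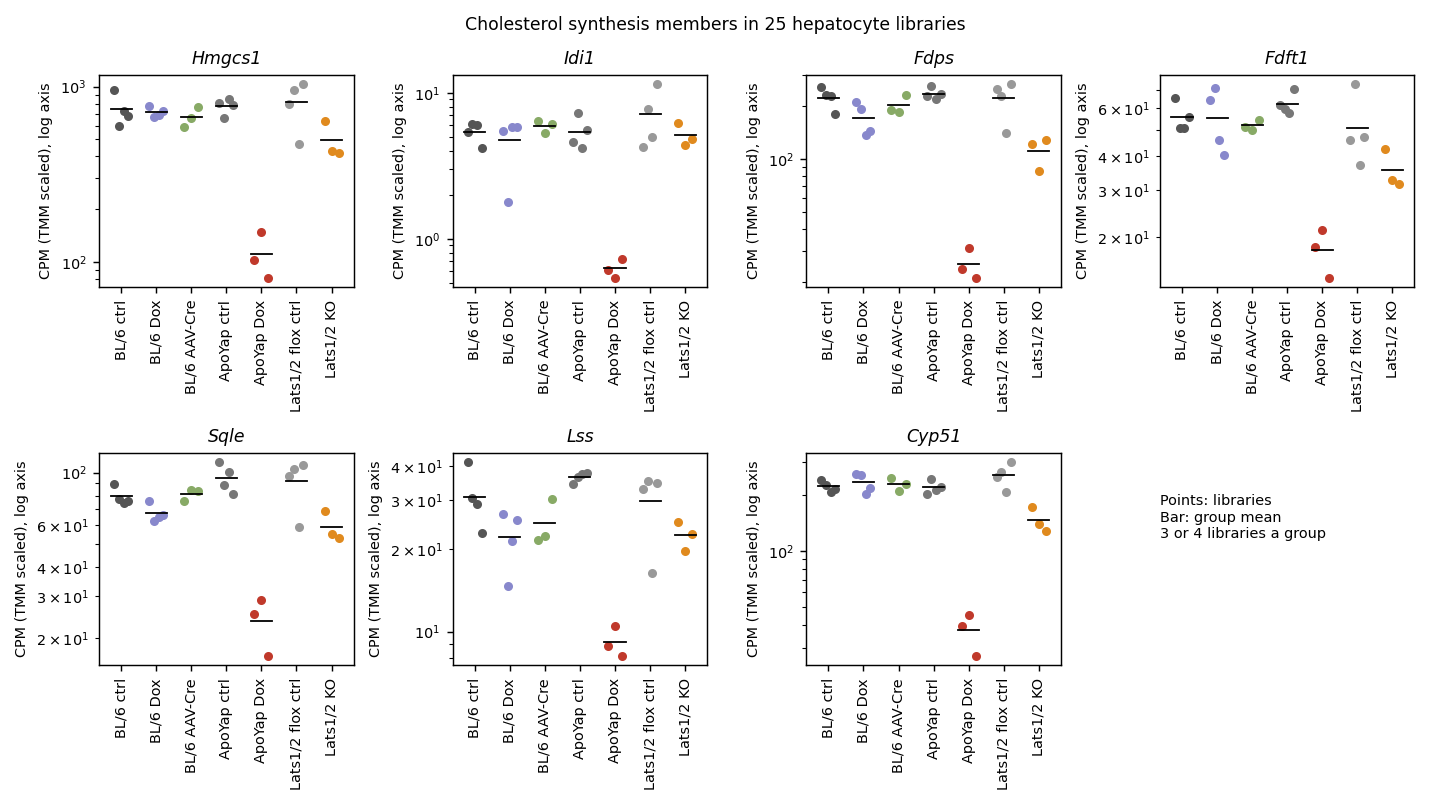
CPM of each member on a log axis in the 25 libraries, 1 panel per gene; points are libraries and bars are group means of 3 or 4 libraries. The 3 ApoYap Dox libraries lie below all other libraries in every panel, for example 81.9 to 148 CPM of Hmgcs1, whereas the Lats1/2 KO libraries overlap their controls in 5 of the 7 panels.

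Some reads near the 3′ ends are shared in position with other genes. The last 774 bases of Fdft1 overlap the end of Ctsb, the cathepsin B gene, on the opposite strand. Ctsb rose with YAP by 1.70 on the log2 scale. The end of Cyp51 overlaps 166 bases of Akap9, which fell by 0.49. Fdps shares 7512 bases with the protein-coding model Gm43738 on its own strand, which is not among the genes counted. Lss, with its end, overlaps 11268 bases of 4930483K19Rik on the opposite strand, a gene with 6 counts over all libraries. The kit marks strand, but the sources used here do not give the counting rule. Counts of Fdft1, Cyp51, Fdps and Lss are uncertain to that extent. In the knockout, Ctsb (0.11) and Akap9 (0.13) were not called.

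The size of the changes depended on how libraries were scaled. The TMM factor was 1.68 to 1.84 in ApoYap Dox and 0.909 to 0.979 in its controls. Scaled by total counts alone, the median of all genes moved to 0.99, 8613 genes were called higher and 1638 lower, against 4536 and 4148 under TMM. The members still fell, all 7 called, with a median log2 change of -1.64. Scaled to the counts of 15 plasma protein genes, which are made by hepatocytes, the median of all genes moved to 1.32 and that of the members to -1.34, again with 7 of 7 called lower. Those plasma protein genes themselves fell under TMM, 15 of 15 called, with a median log2 change of -1.70. Per 1000000 plasma protein counts, Hmgcs1 was at 6465, 4941, 7742 and 6421 in the controls and 1773, 2542 and 1968 after induction. Fdft1 was at 495, 447, 522 and 575 against 319, 368 and 342. The groups did not overlap for either enzyme on this scale. Besides TMM, the numbers of all genes called are given only for total counts after YAP, as above. Counts of list genes under other scalings, given below, lack that background.

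**Figure D2:**
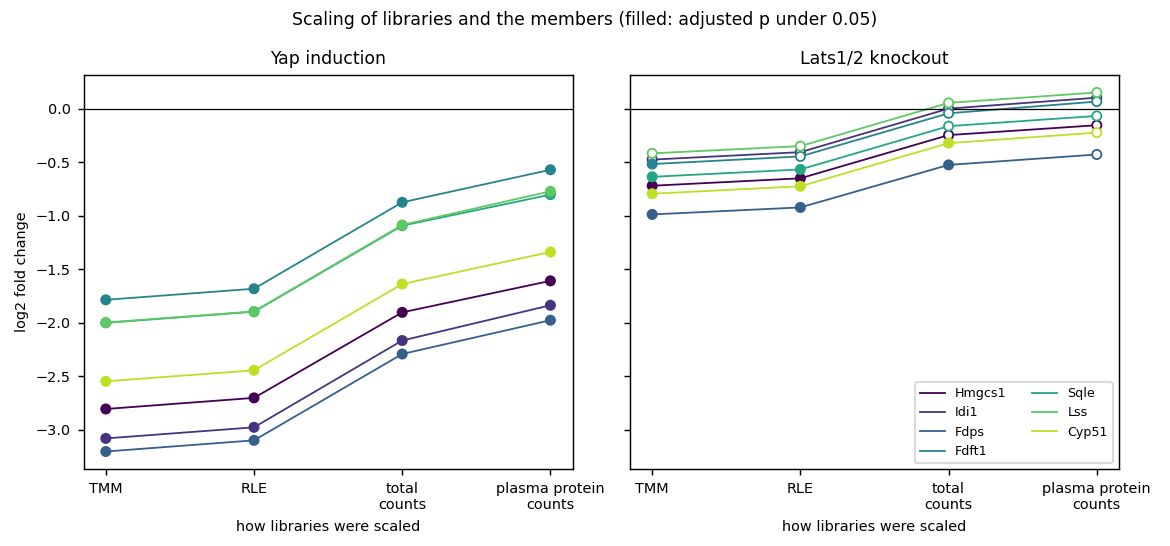
log2 fold change of each member (lines) under 4 ways of scaling the libraries, for YAP induction at left and the Lats1/2 knockout at right; filled points have an adjusted p under 0.05. All 28 points at left are filled and below 0, with medians from -2.55 (TMM) to -1.34 (plasma protein counts), whereas at right the points approach 0 and none is filled under plasma protein scaling.

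In the Lats1/2 KO libraries 5 of the 7 enzymes were lower than in the floxed controls. Fdps fell 1.98-fold, Cyp51 1.74-fold, Hmgcs1 1.65-fold, Sqle 1.56-fold and Fdft1 1.43-fold, while Idi1 and Lss were not called. That is 5 of 7 called lower in edgeR's quasi-likelihood test, against 17.4% of all genes called lower and 20.6% called higher. DESeq2 called 4 and limma voom 2, and Fdft1 kept its call in 6 of 17 alternatives. The median log2 change was -0.64 over the members and -0.03 over all genes tested. In the same comparison 13 of 15 plasma protein genes were called lower, with a median of -0.73, beside the fall of the hepatocyte markers, and their part in the result was not tested. These lists share genes, Alb and Ttr among them. The Lats1/2 KO libraries lay wholly below their controls for 2 members, Fdps and Cyp51, and for 18.8% of all genes.

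Fdps had 250.4, 229, 141 and 266 CPM in the floxed controls and 121, 85.9 and 128 CPM in the knockout (log2 change -0.99, SE 0.20, adjusted p = 0.00032). Cyp51 had 249.5, 264, 207 and 297 CPM against 172, 139.7 and 128 CPM (-0.80, SE 0.15, adjusted p = 0.00018). For these 2 enzymes even the lowest control exceeded the highest knockout library. Hmgcs1 had 793, 959, 473 and 1031 CPM in the controls and 635, 431 and 416 CPM in the knockout (-0.72, SE 0.22, adjusted p = 0.012). Sqle had 96.7, 104, 58.8 and 107 CPM against 69.1, 54.9 and 53.0 CPM (-0.64, SE 0.17, adjusted p = 0.0052). In both genes the overlap comes from the third control, which lies under the highest knockout library. Fdft1 had 45.8, 73.5, 37.2 and 46.9 CPM against 42.6, 32.7 and 31.4 CPM (-0.52, SE 0.20, adjusted p = 0.042). Lss had 33.1, 35.4, 16.3 and 34.8 CPM against 25.1, 19.6 and 22.6 CPM (-0.42, SE 0.22, adjusted p = 0.15). Here the third control was the lowest of all 7 libraries. Idi1 had 4.28, 7.72, 5.00 and 11.4 CPM against 6.23, 4.38 and 4.83 CPM, fully interleaved (-0.48, SE 0.32, adjusted p = 0.25).

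The third floxed control was below its group mean in all 7 members, by 0.54 on the log2 scale on average. Without it, Lss was also called (-0.62, adjusted p = 0.015) and the count was 6. Without the second or without the third knockout library the count was 3 each time. The count also depended on scale: 2 of 7 were called lower with total counts, where the median of all genes was 0.44, and 0 with plasma protein scaling, where it was 0.55. In that last setting the median log2 change of the members was -0.07, and Idi1, Fdft1 and Lss were above 0 (0.10, 0.07 and 0.15). Total counts put Lss alone above 0, at 0.05.

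The change with YAP exceeded the change with the knockout in all 7 enzymes when the difference itself was tested (17.4% of all genes were called higher in that contrast). The differences in log2 change ran from 1.27 for Fdft1 (SE 0.28, adjusted p = 0.0012) to 2.6 for Idi1 (SE 0.48, adjusted p = 0.0002). Hmgcs1 differed by 2.09, Fdps by 2.21, Cyp51 by 1.75, Lss by 1.58 and Sqle by 1.36. With total counts and with plasma protein scaling these medians were 1.32 and 1.11, against 1.75 under TMM. Fdft1 was the 1 member not called under plasma protein scaling, at 0.64 (adjusted p = 0.06). Macrophage markers differed in the opposite direction, all 11 being below 0 in this contrast, from -3.52 to -0.43 with a median of -2.84. The median of all genes tested was -0.008. The part of the macrophage markers in the difference was not tested.

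**Figure D3:**
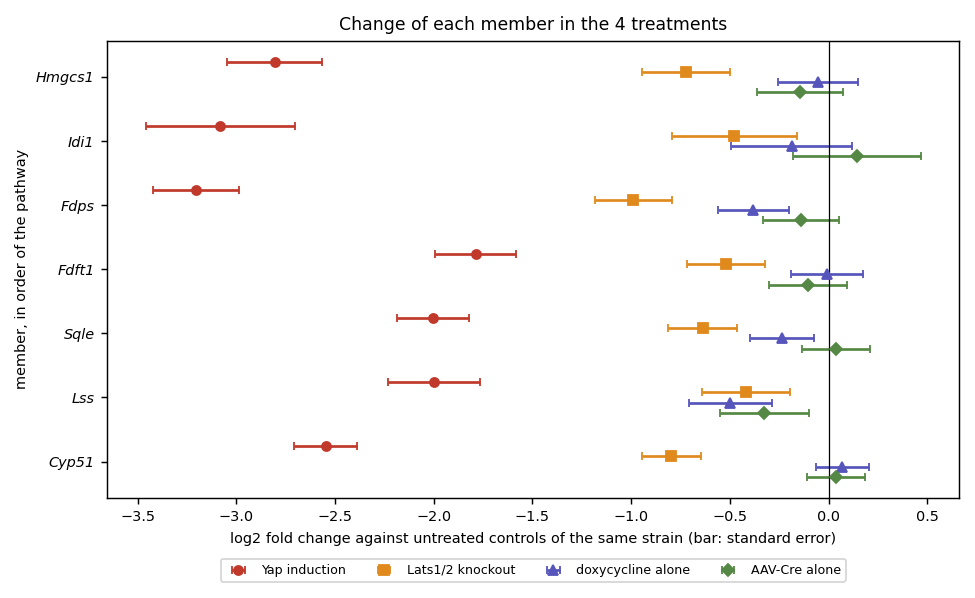
log2 fold change of each member, from the start of the pathway at the top, with standard errors, for YAP induction, the Lats1/2 knockout, doxycycline in BL/6 mice and AAV-Cre in BL/6 mice, each against untreated mice of the same strain. YAP induction lies between -3.20 and -1.79, the knockout between -0.99 and -0.42, and both BL/6 treatments between -0.50 and 0.14.

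Neither agent alone gave a called change in these genes. Doxycycline water in BL/6 mice gave 0 of 7 called in either direction by edgeR, DESeq2 or limma voom, where edgeR called 0.123% of all genes. With p unadjusted and under 0.05 there were 2, Lss (-0.50, SE 0.21, adjusted p = 0.34) and Fdps (-0.38, SE 0.18, adjusted p = 0.4), both lower. Fdps had 212, 193, 137 and 145 CPM with doxycycline and 255, 231, 227 and 179 CPM without, so the groups overlapped. Lss had 26.8, 14.6, 21.4 and 25.4 CPM against 41.3, 30.7, 29.1 and 22.9 CPM, also overlapping. The virus in BL/6 mice after 24 hours gave 0 of 7 by each of the 3 tools and 0 with p unadjusted and under 0.05, where edgeR called 0.301% of all genes. Its log2 changes lay between -0.33 (Lss) and 0.14 (Idi1).

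With the response of BL/6 mice to doxycycline subtracted, the fall after YAP was still called for 7 of 7 (27.4% of all genes were called lower), with log2 differences from -1.5 for Lss (SE 0.31, adjusted p = 0.00022) to -2.90 for Idi1 (SE 0.48, adjusted p = 1.6e-05). Lss lost its call with total counts (-0.58, adjusted p = 0.086) and with plasma protein scaling (-0.42, adjusted p = 0.24). With the response to the virus subtracted, 3 of 7 were called in the knockout, where 11.4% of all genes were called lower. These were Fdps (-0.85, SE 0.27, adjusted p = 0.024), Cyp51 (-0.83, SE 0.21, adjusted p = 0.0052) and Sqle (-0.68, SE 0.24, adjusted p = 0.044). DESeq2 and limma voom called 2 each, and leaving out 1 library gave 1 to 4. Sqle lost its call in 18 of 24 alternatives, Fdps in 6 and Cyp51 in 2, and none of the 3 kept it with total counts or with plasma protein scaling. This contrast sets 1 week against 24 hours after the virus.

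Before any treatment, the 3 strains did not differ in a called way in these enzymes. ApoYap ctrl against BL/6 ctrl gave 0 of 7 by all 3 tools, and 0 with p unadjusted and under 0.05, where edgeR called 0.439% of all genes. The floxed controls against BL/6 ctrl likewise gave 0 of 7 and 0, where 4.12% were called. Hmgcs1 averaged 776 ± 82.3 CPM (SD, n = 4) in ApoYap ctrl, 814 ± 248 (n = 4) in the floxed controls and 740.1 ± 152 (n = 4) in BL/6 ctrl. Its order over the 7 groups ran from the floxed controls through ApoYap ctrl, BL/6 ctrl, BL/6 Dox (714 ± 48.8, n = 4), BL/6 AAV-Cre (670.2 ± 91.9, n = 3) and Lats1/2 KO (494 ± 122, n = 3) to ApoYap Dox (111 ± 33.8, n = 3). Neighbours among the upper 5 differed by less than their SD. Together the 7 enzymes took 0.124% to 0.145% of all counts in ApoYap ctrl, 0.0834% to 0.149% in the floxed controls, 0.0896% to 0.122% in Lats1/2 KO and 0.0313% to 0.0480% in ApoYap Dox.

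Of the other 13 sterol enzymes, 12 were called lower and 1 higher after YAP, with a median log2 change of -2.18. Over all genes tested, 32.0% were called lower and 35.0% higher. Sc5d (-3.18), Msmo1 (-2.72), Nsdhl (-2.81) and Ebp (-1.94), all of which act after Cyp51, fell. The 1 that rose is Lbr, a protein of the inner nuclear membrane that has sterol reductase activity. Lbr and Tm7sf2 encode enzymes for the same step, reduction of the double bond that Cyp51 leaves behind. Tm7sf2 ranged from 55.0 to 75.2 CPM in ApoYap ctrl and from 4.30 to 6.61 CPM in ApoYap Dox (-3.72, SE 0.27, adjusted p = 4.4e-11). Lbr ranged from 11.1 to 16 CPM and from 45.4 to 52.6 CPM (1.84, SE 0.18, adjusted p = 2e-09). The pair thus moved in opposite directions, and the macrophage and endothelial marker sums given above rose in the same libraries as Lbr.

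In the knockout, 8 of the 13 were called lower and 1 higher, with a median of -0.57 (17.4% and 20.6% of all genes). Msmo1 (-1.25), Mvd (-1.24), Tm7sf2 (-1.07) and Sc5d (-0.75) fell, and Lbr again rose (1.04, SE 0.18, adjusted p = 8.4e-05). With the response to the virus subtracted, Sc5d was not called in edgeR (-0.58, adjusted p = 0.12). Msmo1, Mvd, Tm7sf2 and Lbr kept their calls. With total counts and with plasma protein scaling, 3 and 2 of the 13 were called lower in the knockout, and 11 and 10 after YAP.

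**Figure D4:**
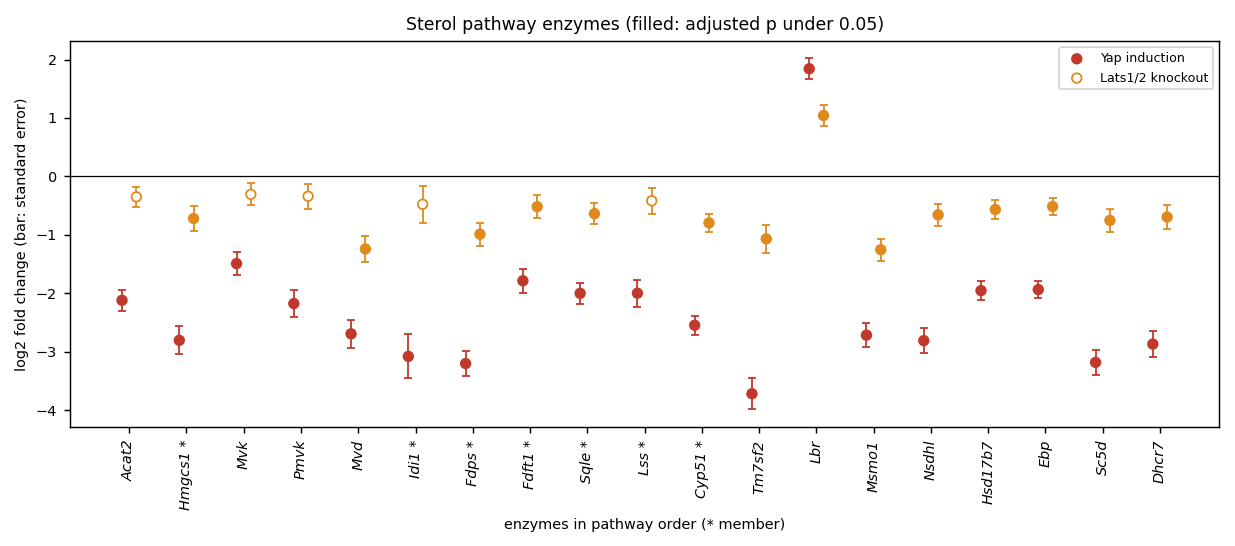
log2 fold change with standard error of the 7 members (asterisks) and 12 other sterol enzymes, in pathway order from left to right, after YAP induction and in the Lats1/2 knockout; filled points have an adjusted p under 0.05. All but Lbr are below 0 after YAP, from -1.49 (Mvk) to -3.72 (Tm7sf2), and Lbr is at 1.84 and 1.04.

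Genes that control the pathway did not move in 1 direction. Of 14 genes for SREBP control and sterol sensing, 7 were called lower and 4 higher after YAP, with a median of -0.32, where 32.0% and 35.0% of all genes were called lower and higher. Insig2 (-3.83, SE 0.19), Insig1 (-2.0, SE 0.24) and Scap (-2.09, SE 0.15) fell, so that transcripts of both INSIG genes and of the escort were lower. Stard4, which carries sterol between membranes, fell by 1.57 and Rnf145, a sterol-responsive ubiquitin ligase, rose by 2.17. The transcription factor genes, named for their role and not by rank, changed under TMM, Srebf2 by -0.48 (SE 0.18, adjusted p = 0.022) and Srebf1 by -1.26 (SE 0.43, adjusted p = 0.014). Srebf2 was above 0 with total counts (0.44) and with plasma protein scaling (0.78). Srebf1 lost its call with total counts (-0.35, adjusted p = 0.46), with plasma protein scaling (-0.026, adjusted p = 0.95) and without ApoYap Dox 2 (-1.14, adjusted p = 0.057). With total counts and with plasma protein scaling, 4 and 3 of the 14 were called lower and 9 each higher. With total counts most of all genes tested were called higher too, so these counts are not a result particular to the list. The share of all genes with plasma protein scaling is not given here.

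In the knockout 6 of the 14 were called lower and 1 higher (17.4% and 20.6% of all genes). Insig2 (-1.38), Scap (-1.16), Insig1 (-0.95) and Stard4 (-0.68) fell, and Mylip, the ligase that marks lipoprotein receptors for destruction, rose by 2.07 (SE 0.44, adjusted p = 0.0007). With the response to the virus subtracted, Stard4 was not called in edgeR (-0.51, adjusted p = 0.11). Insig2, Scap, Insig1 and Mylip kept their calls. Srebf1 fell by 1.32 (adjusted p = 0.021) but lost its call in 6 of 17 alternatives, among them without Lats1/2 flox ctrl 2, without Lats1/2 KO 1 and without Lats1/2 KO 2 (adjusted p = 0.082, 0.079 and 0.064). Nor was Srebf1 called with the response to the virus subtracted (-0.89, adjusted p = 0.3 in edgeR). Srebf2 was at -0.26 (adjusted p = 0.27) and above 0 with total counts (0.22) and plasma protein scaling (0.32). With those scalings 2 and 2 of the 14 were called lower and 5 and 6 higher, and the shares of all genes called there are not given here.

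Beyond Fdps, farnesyl diphosphate feeds isoprenoid branches. Of 13 genes of these branches, 7 were called lower and 2 higher after YAP, with a median of -0.43 (32.0% and 35.0% of all genes). Pdss2 (-1.08) and Coq2 (-0.58), of ubiquinone synthesis, Dhdds (-0.81), of dolichol synthesis, and Rabggtb (-0.57), of protein prenylation, fell under TMM. Ggps1, which makes geranylgeranyl diphosphate, rose by 0.98 (SE 0.31, adjusted p = 0.0068). These directions depended on scale: with total counts 0 were called lower and 10 higher, and with plasma protein scaling 0 and 12, whereas all 7 members stayed lower in both. Most of all genes tested were likewise called higher with total counts, and the share with plasma protein scaling is not given here. In the knockout 3 were called lower, Rabggta (-0.58), Fnta (-0.39) and Rce1 (-0.54), and 0 higher, where 17.4% and 20.6% of all genes were called. The 3 became 1 without Lats1/2 flox ctrl 2 or Lats1/2 KO 1 and 0 without Lats1/2 KO 2, and with either of those scalings 0 were lower and 3 higher. With the response to the virus subtracted, Rabggta, Fnta and Rce1 were not called, and Fntb was called higher in edgeR (1.08, adjusted p = 0.049).

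Of 16 genes for uptake, storage and export of cholesterol, 6 were called higher and 6 lower after YAP, with a median of 0.24. These shares are near the 35.0% and 32.0% of all genes called higher and lower. Soat1, which esterifies cholesterol for storage, rose by 5.66 and Abcg1, an exporter, by 5.10, and Npc2, a lysosomal carrier, by 1.42. Lcat, the plasma esterifying enzyme, fell by 2.28 and Abcg8, part of the bile exporter, by 2.58. In the knockout 5 were higher, among them Soat1 (2.62), Abcg1 (2.46) and Lipa (0.75), the lysosomal lipase, and 4 lower, among them Lcat (-1.05) and Abca1 (-0.57), where 20.6% and 17.4% of all genes were called. With total counts and plasma protein scaling, 11 and 13 were called higher and 2 each lower after YAP, and 10 each higher and 1 each lower in the knockout. After YAP most of all genes tested were called higher with total counts as well. The other shares of all genes at these scalings are not given here. The macrophage marker sums moved with these rises, and their part was not tested.

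Lipogenic genes, which the sister factor SREBP-1 is known to drive, also fell. After YAP 14 of 14 were called lower, with a median of -3.45, where 32.0% of all genes were called lower. Among them were Fasn (-4.22), the fatty acid synthase, Thrsp (-7.55), Fads2 (-3.57), Elovl6 (-2.90) and Fads1 (-2.06). In the knockout 11 of 14 were called lower, with a median of -1.26, where 17.4% of all genes were called lower. These 11 were led by Thrsp (-2.74), Fads2 (-1.81), Fasn (-1.52) and Me1 (-1.52). With the response to the virus subtracted, only Fads1, Fads2, Fasn, Me1 and Thrsp kept a call. With total counts and plasma protein scaling 13 and 12 were called lower after YAP, and 8 and 5 in the knockout. None was called higher in any of these settings.

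The members also varied together among replicates. After the mean of each group was subtracted, the 21 pairs of members correlated with a median Pearson r of 0.62 over 25 libraries, from -0.16 for Idi1 with Fdft1 to 0.88 for Hmgcs1 with Sqle. Against the mean of the other 6, Hmgcs1 stood highest (r = 0.86), then Sqle (0.83), Lss (0.76), Fdps (0.74), Cyp51 (0.72) and Fdft1 (0.56). Idi1, with its low counts, was last (0.21). These are descriptions over libraries that share depth and scaling. The third floxed control was the lowest library within its group, at -0.54 on average, and the fourth the highest, at 0.31. In ApoYap Dox the second and the third libraries stood at 0.24 and -0.26, and in BL/6 Dox the first at 0.24.

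**Figure D5:**
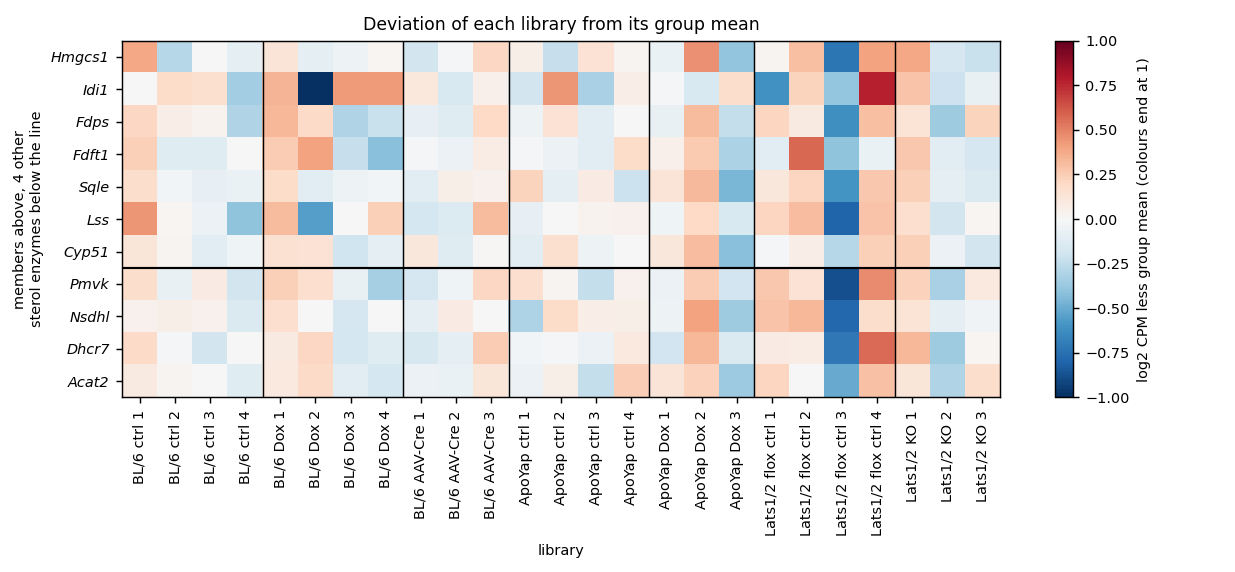
log2 CPM of the 7 members (above the line) and of Pmvk, Nsdhl, Dhcr7 and Acat2 (below it) in each library less the mean of its group, red for above and blue for below. Lats1/2 flox ctrl 3 is blue in all 7 members, by 0.54 on average, and Lats1/2 flox ctrl 2 is red in all 7, by 0.25.

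By the same measure, the genes most like the mean of the members within groups were Pmvk (r = 0.84), Nsdhl (0.83), Dhcr7 (0.83) and Acat2 (0.75), then Rdh11 (0.75), Mtres1 (0.74), Pop4 (0.73), Fbxo6 (0.71), Msmo1 (0.71) and Mvd (0.70). Of these 10, 6 are other sterol enzymes of the list. Pmvk and Mvd act on phosphorylated forms of mevalonate, Acat2 makes the acetoacetyl-CoA that Hmgcs1 uses, and Msmo1, Nsdhl and Dhcr7 act after Cyp51. Over all 25 libraries with group differences kept, the 10 were Dhcr7 (0.98), Nsdhl (0.98), Ido2 (0.97), Acat2 (0.97), Stra6l (0.97), Lin7a (0.96), Hsd17b7 (0.96), Tlcd2 (0.96), C8b (0.96) and Trim2 (0.96), of which 4 are on that list. Tm7sf2 followed the members less within groups (0.15), as did Srebf2 (0.16) and Srebf1 (-0.04).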

How the data were processed

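Hepatocytes sorted after collagenase perfusion gave 25 libraries of 3′ end RNA sequencing (QuantSeq 3′ FWD, per the labels' protocols). The authors' deposited table holds raw counts per gene symbol. The submitters' processing notes name FastQC, cutadapt, STAR 2.6.1d and the mouse builds mm10 and GRCm38; for the counting tool, annotation and strand setting, nothing is given in the sources used here. A 3′ tag count does not grow with transcript length, and levels are compared here only within a gene.

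Counts were tested in edgeR 4.0.16 (R 4.3.3) with its quasi-likelihood test: TMM scaling, filterByExpr by group (minimum count 10, total 15), robust fit, 1 mean per group over all 25 libraries, and Benjamini-Hochberg adjustment over 12970 genes at 0.05. Differences between responses were contrasts of the same fit. CPM values use TMM library sizes, and log2 values for correlations a prior count of 2. Alternatives were RLE, total count and plasma protein scaling, TMM without the 50 most abundant genes, DESeq2 1.42.0, limma voom 3.58.1, other filters, thresholds and samples, a replicate block, and each library left out. The script was tested on simulated data. There it recovered 51% to 64% of 2-fold changes in the 4 treatment comparisons, and 81% to 84% of 4-fold changes. A change of 2-fold or less can thus go uncalled. No libraries were duplicates: the lowest chi-square per degree of freedom within a group was 6.97.

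The members and gene lists were chosen with earlier results of these data known. Named besides the members are up to 5 genes per list with the smallest p in a comparison, genes going against their list, and the 10 genes most like the members by Pearson correlation, predicted genes passed over. One gene of the sterol enzyme list, counted in its totals, is not reported here.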

Additional observations from a re-analysis of the deposited data

Results flagged for a closer look

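In 28 sets of 4 libraries (7 genes in the 4 groups of that size), 2 had a library far from the others by Dixon's criterion, which chance meets in about 1 set in 20. Idi1 was at 1.79 CPM in BL/6 Dox 2, against 5.50 to 5.85 in the other 3. Lss was at 16.3 CPM in Lats1/2 flox ctrl 3, against 33.1 to 35.4 in the other 3, and that library was low in all 7 members.

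The response to doxycycline differed between transgenic and BL/6 mice in each of the 7 enzymes by the test of the difference in edgeR. The log2 differences were -2.75 for Hmgcs1, -2.90 for Idi1, -2.82 for Fdps, -1.78 for Fdft1, -1.77 for Sqle, -1.5 for Lss and -2.62 for Cyp51. The response to AAV-Cre differed between floxed and BL/6 mice for Cyp51 (-0.83), Fdps (-0.85) and Sqle (-0.68) under TMM. The floxed mice were taken 1 week and the BL/6 mice 24 hours after the virus, so strain and time cannot be told apart. Sqle lost this call in 18 of 24 alternatives, Fdps in 6 and Cyp51 in 2, and none of the 3 kept it with total counts or plasma protein scaling.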

How the results depend on the processing

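All 7 enzymes were called lower after YAP under each alternative run, except that Idi1 did not pass a filter of 10 CPM in 3 libraries, where 6 of 6 were called. In the knockout, where 5 were called, the count was 2 with total counts, with limma voom and with only the compared groups, 0 with plasma protein scaling and with a log2 change of at least 1, and 3 at an adjusted p under 0.01. Leaving out 1 library gave 3 to 6, with 3 without Lats1/2 KO 2 or 3. Net of AAV-Cre, where 3 were called, it was 0 with total counts, plasma protein scaling or a log2 change of at least 1, and 1 at an adjusted p under 0.01. Leaving out 1 library gave 1 to 4, with 1 without Lats1/2 flox ctrl 4, Lats1/2 KO 2, BL/6 ctrl 4 or BL/6 AAV-Cre 3.

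Some log2 changes turned sign with total counts and plasma protein scaling, in that order. After YAP these were Dhdds (0.10, 0.43), Rabggtb (0.35, 0.66), Coq2 (0.33, 0.64) and Srebf2 (0.44, 0.78), and Pdss2 with plasma protein scaling only (0.14). In the knockout they were Lss (0.053, 0.15), Fnta (0.081, 0.20), Nus1 (0.23, 0.35) and Srebf2 (0.22, 0.32), and with plasma protein scaling only Idi1 (0.10), Fdft1 (0.065), Rabggta (0.0088) and Rce1 (0.053). Net of AAV-Cre, Lss turned to 0.36 and 0.27, and also with limma voom (0.073), without BL/6 ctrl 4 (0.028) and without BL/6 AAV-Cre 3 (0.088; leaving out each library in turn gave -0.29 to 0.088), and Fdft1 to 0.047 with total counts. With doxycycline alone, Idi1 turned with limma voom (0.021), without BL/6 Dox 2 (0.087; leaving out each library in turn gave -0.31 to 0.087) and without BL/6 Dox 1 and 2 together (0.11), as did Cyp51 in that last setting (-0.087). The scalings differ by construction in the shift of all genes; other causes were not tested.

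Replicate numbers did not pair the libraries: correlations of same-numbered libraries ran from -0.24 to 0.16. With the replicate block, 7 members were called lower after YAP and 5 in the knockout, with median log2 changes of -2.56 and -0.63. Depth limits Idi1 above all, at 12 to 17 counts per induced library.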
